A study of Mus musculus with 14 samples.

Results

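PeriFibro cells are lung cells that carry both a Foxd1-lineage tag and a collagen reporter, and their response to bleomycin was read from 5 bead arrays, 3 of bleomycin-injured and 2 of uninjured mice, out of 14 arrays in all. The members were chosen by label: every array labelled PeriFibro. The cells were sorted from the digested lungs of Foxd1-Cre;Rosa26-Tdtomato;Coll-GFP mice, so all groups carry the same 3 alleles. In these mice Cre is driven by the Foxd1 promoter during development, which tags the descendants of Foxd1-expressing cells with tdTomato, and GFP is driven by a collagen promoter. PeriFibro cells are positive for both colours, Peri cells carry the lineage tag alone and Fibro cells carry GFP alone. Injured mice received 0.8 U/kg bleomycin into the trachea, uninjured mice received saline, and lungs were taken at day 7. By the labels, cells of injured lungs came from males and those of uninjured lungs from females, so injury and sex cannot be told apart in any comparison below, and genes on X and Y were left out of what is described. By the study's methods the mice were young adults, and the labels give no age by group.

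Bleomycin is a glycopeptide that breaks DNA strands. In the mouse lung it damages epithelium and endothelium, draws in monocytes and macrophages, and leads in the following weeks to collagen deposition. Pericytes lie within the basement membrane of capillaries next to endothelial cells, and the lineage-tagged cells that also switch on a collagen reporter are studied as a possible source of scar-forming cells. The comparison here asks which genes differed in those cells at day 7 after injury.

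The values are log2 signals of Illumina MouseWG-6 v2.0 arrays after background correction and quantile normalisation. The lowest detected signal of a PeriFibro array read between 4.69 and 4.82. Probes close to or under that level are described below as at or near background. Between 39.38% and 43.07% of probes were detected on each PeriFibro array. Each gene was represented by its brightest detected probe, and 12050 autosomal genes were tested with limma. Calls required both an adjusted P under 0.05 and at least a 2-fold difference. The labels do not say that arrays come from separate mice, so P values measure only the spread between these arrays, which may be technical. With 3 arrays against 2, an exact two-sided rank test of a single gene cannot go below P = 0.2. The adjusted P values below come from the fit across all genes, which borrows its spread from all 14 arrays.

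1 array stood apart. By its methods, the study removed 2 outlying samples that had hybridised poorly, without naming them. Whether the array described here was 1 of them is not known, and all deposited arrays were kept. PeriFibro bleomycin array 3 correlated with the other PeriFibro arrays at r = 0.932 to 0.947 across genes, against 0.964 to 0.984 among the other 4. Genes of heart muscle were brightest there. Myl7, an atrial myosin light chain, read 6.93, 5.83 and 9.0 on bleomycin arrays 1, 2 and 3 and 6.18 and 4.99 on the uninjured arrays. Tnnc1, cardiac troponin C, read 7.36, 5.94 and 8.80 against 6.26 and 5.31. Without that array 6 genes were called, 5 of them among the 13 called with it. Values without it are given beside some of the results it moved. Others moved as well: Trem2 differed by 3.34 with that array and by 2.85 without it.

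The sorted cells were checked against marker lists. Endothelial markers were by far the brightest of the lists of vessel and stromal cells: their 27 measured genes summed to between 146000 and 238000 linear signal units per array, and 0 of the 27 were undetected on all 5 arrays. Cldn5, the tight junction protein of endothelium, read between 14.18 and 14.55 on the 5 arrays, and Cdh5, the adherens junction cadherin of endothelium, between 11.80 and 13.62. The 13 measured pericyte markers summed to between 4680 and 10700, and Pdgfrb, the receptor by which pericytes are recruited, read between 6.55 and 8.34. The 7 measured fibrillar collagen genes summed to only 545 to 1120, and Foxd1 itself, whose promoter drives the lineage tag, had no probe that passed the detection filter. Values from different genes sit on probes of different brightness, so these sums describe each list and do not measure cell shares. The marker levels do not settle which cells the gate held, and the cells are called here by their sort.

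**Figure D1:**
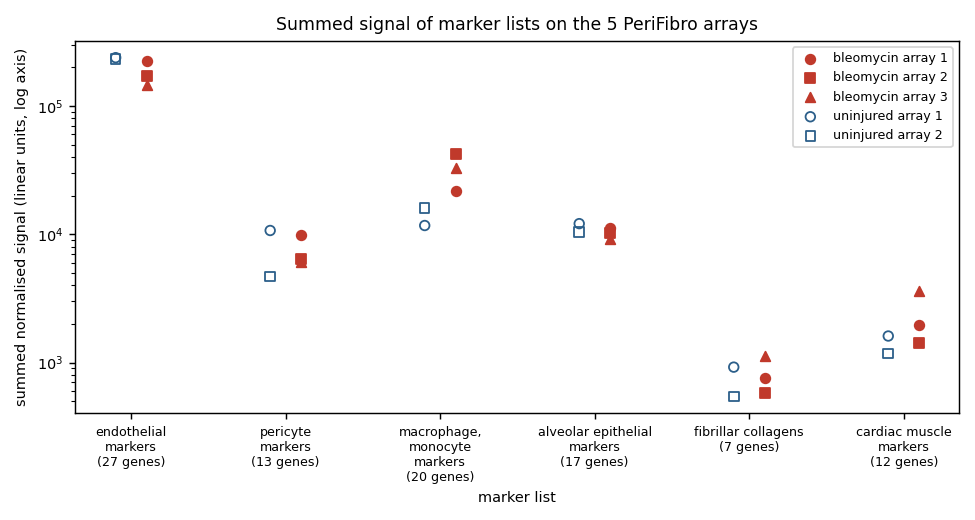
Summed normalised signal (linear units, log axis) of 6 marker lists on the 5 PeriFibro arrays, with filled red symbols for bleomycin and open blue symbols for uninjured arrays. Endothelial markers reached 146000 to 238000, against 4680 to 10700 for pericyte markers, and only the macrophage and monocyte markers were higher on all 3 bleomycin arrays (21800 to 42400) than on both uninjured arrays (11700 and 16100) among the 6 lists drawn.

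Bleomycin was followed by a short list of large increases. Of the 12050 genes tested, 13 were called (0.108%): 12 were higher in bleomycin PeriFibro cells (0.0996%) and 1 was lower (0.0083%). The genes that rose include Serpina3n and Lrg1, a pair of secreted acute-phase proteins, Arg1 and Mmp12, which are widely used as macrophage genes, Ackr1, a chemokine-binding protein of venules, the hypoxia-responsive Ankrd37, the laminin chain gene Lama1 and the DNA-sensing adaptor gene Sting1. Tex14, known for its part in the bridges between germ cells, was the only gene called lower. At an unadjusted P under 0.05, 387 genes were higher (3.21%) and 411 lower (3.41%). The difference was positive for 46.2% of all genes. In simulated data the fit called 16.4% of 2-fold and 67.2% of 4-fold changes, so the number of calls does not measure the size of the response. The split of the calls moved with the processing: 13 higher and 4 lower without background correction, 18 and 5 with a larger offset, and 7 and 2 in the deposited normalised values. The number of calls was 1 without uninjured array 1, 2 without uninjured array 2, 3 without bleomycin array 2 and 12 without bleomycin array 1.

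**Figure D2:**
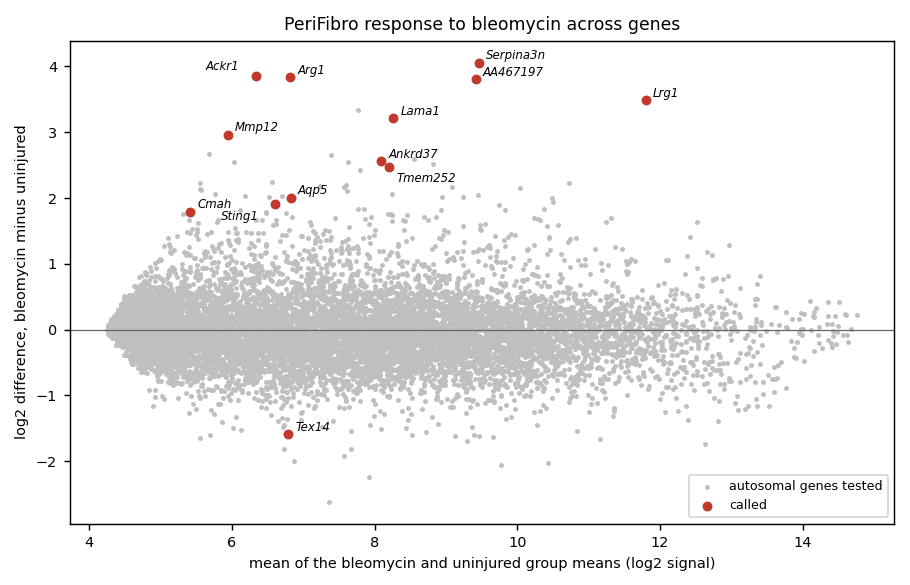
Each point is an autosomal gene, with the mean of the bleomycin and uninjured group means (log2 signal) on the x axis and the log2 difference, bleomycin minus uninjured, on the y axis. The 13 called genes are red: 12 lie at 1.79 or higher and Tex14 lies at -1.59, while 90% of all genes lie between -0.73 and 0.75.

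Among the called genes, the promoters that bear on the description are printed here, since an acute-phase gene, a hypoxia gene and a vessel wall gene rose together. RefSeq windows of 300 bases (250 before to 50 after the start of transcription, build GRCm38.p6) were at hand for 10 of the 13 called genes. The 4 of them with the largest differences are shown, and Ankrd37 was added because it is a known target of hypoxia-inducible factor. Capitals mark matches, on either strand, to TTCNNNGAA (STAT), ACGTG (hypoxia-inducible factor), GGG followed by NNTTN and CC (NF-kB), TGANTCA (AP-1) or TTGCNNAA (C/EBP).
AA467197, chr2:122637637-122637936, plus strand: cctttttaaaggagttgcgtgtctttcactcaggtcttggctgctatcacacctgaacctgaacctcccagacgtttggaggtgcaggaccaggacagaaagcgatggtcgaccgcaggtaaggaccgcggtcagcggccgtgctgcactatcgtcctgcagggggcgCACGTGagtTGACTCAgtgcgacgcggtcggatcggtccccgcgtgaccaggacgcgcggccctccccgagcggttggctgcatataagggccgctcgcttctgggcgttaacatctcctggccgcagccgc
Ankrd37, chr8:45999801-46000100, minus strand: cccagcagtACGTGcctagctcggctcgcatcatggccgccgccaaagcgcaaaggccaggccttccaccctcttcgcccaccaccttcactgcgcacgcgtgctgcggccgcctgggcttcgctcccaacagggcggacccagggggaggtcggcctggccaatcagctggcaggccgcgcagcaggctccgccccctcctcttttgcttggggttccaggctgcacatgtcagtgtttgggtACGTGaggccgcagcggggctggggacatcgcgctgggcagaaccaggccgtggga
Lrg1, chr17:56121897-56122196, minus strand: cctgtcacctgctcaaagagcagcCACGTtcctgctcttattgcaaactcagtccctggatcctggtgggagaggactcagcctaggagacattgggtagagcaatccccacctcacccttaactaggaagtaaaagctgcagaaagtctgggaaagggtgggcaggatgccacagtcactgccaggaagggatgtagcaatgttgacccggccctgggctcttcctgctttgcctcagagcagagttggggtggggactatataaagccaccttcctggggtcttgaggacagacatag
Serpina3n, chr12:104406458-104406757, plus strand: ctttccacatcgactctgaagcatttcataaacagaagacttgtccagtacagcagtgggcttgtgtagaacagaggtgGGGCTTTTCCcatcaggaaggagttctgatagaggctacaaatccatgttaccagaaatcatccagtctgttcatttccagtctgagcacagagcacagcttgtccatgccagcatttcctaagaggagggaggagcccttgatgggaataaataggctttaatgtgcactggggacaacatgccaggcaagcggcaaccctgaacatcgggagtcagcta
Ackr1, chr1:173333454-173333753, minus strand: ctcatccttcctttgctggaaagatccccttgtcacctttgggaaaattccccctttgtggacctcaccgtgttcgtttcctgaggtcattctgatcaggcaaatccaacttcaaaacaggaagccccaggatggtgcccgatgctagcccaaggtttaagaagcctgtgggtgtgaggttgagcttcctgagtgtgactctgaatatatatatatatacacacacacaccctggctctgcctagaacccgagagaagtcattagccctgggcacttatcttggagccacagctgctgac
Of all 32851 promoter windows in the table, 19.6% held ACGTG, 10.8% TTGCNNAA, 8.3% TTCNNNGAA, 7.81% TGANTCA and 4.79% the NF-kB letters. Among the 12 windows of the 10 called genes, ACGTG occurred in 5 (those of AA467197, Ankrd37, Lrg1, Aqp5 and Cmah), TGANTCA in 2, and the NF-kB letters and TTGCNNAA in 1 each, and TTCNNNGAA occurred in 0. The match in AA467197 starts at position -82 from the start site and overlaps on both strands as a palindrome, which is also an E-box, and the AP-1 letters follow it at -73. Ankrd37 holds 2 matches to ACGTG, at -241 and -6. These are matches of letters in a short window and do not show that a factor binds there.

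The largest difference among the called genes was that of Serpina3n. This acute-phase inhibitor of serine proteases on chromosome 12 read 12.12, 10.94 and 11.41 on bleomycin arrays 1, 2 and 3 and 6.84 and 8.02 on the uninjured arrays. All 3 bleomycin arrays lay above both uninjured arrays, and the log2 difference was 4.06 ± 0.59 (SE), or 16.7-fold (limma adjusted P = 0.0225). Without bleomycin array 3 it was 4.10 at adjusted P = 0.0709. Serpina3n belongs to a cluster of near-identical genes, and the array's probe was not checked against its neighbours. Lrg1, a secreted glycoprotein known to modulate TGF-beta signalling in endothelial cells, read 13.77, 13.40 and 13.45 against 9.53 and 10.58. The groups did not overlap and differed by 3.48 ± 0.40 (adjusted P = 0.00612). Haptoglobin (Hp), which binds free haemoglobin, read 8.38, 8.76 and 8.84 against 6.95 and 6.02, without overlap, but its difference of 2.17 ± 0.61 did not pass (adjusted P = 0.315). Of the 16 measured acute-phase genes and protease inhibitors, 3 were higher at an unadjusted P under 0.05 (Serpina3n, its neighbour Serpina3f and Hp) and 0 lower. The higher ones are 18.8% of the list, against 3.21% of all genes, and the median difference was -0.04.

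The next largest difference was that of Ackr1. Ackr1, the atypical chemokine receptor of venules that binds chemokines without signalling through G proteins, was undetected on both uninjured arrays (4.42 and 4.40) and read 7.40, 8.26 and 9.14 on the bleomycin arrays. The increase was at least 11.4-fold when measured from the lowest detected signal, and the fitted difference was 3.86 ± 0.60 (adjusted P = 0.0353; 0.0922 without bleomycin array 3). Selp, which encodes P-selectin, the adhesion molecule on which leukocytes roll, read 8.92, 9.16 and 8.93 against 6.40 and 6.76. Its groups did not overlap, but the difference of 2.42 ± 0.48 was not called (adjusted P = 0.0884). Icam1 read 12.14, 11.72 and 11.30 against 11.21 and 11.47, with overlapping groups and a difference of 0.38 ± 0.49, or 0.59 without bleomycin array 3. Among 18 measured adhesion and leukocyte-capture genes, Selp was the only one higher at an unadjusted P under 0.05 (5.56%, against 3.21% of all genes). The list's median was 0.25.

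Arg1 had the smallest P of all genes. Arg1, which encodes the enzyme that splits arginine into ornithine and urea, read 8.51, 9.24 and 8.44 in injured against 4.86 and 4.94 in uninjured cells, where it lay just above background. The 2 groups were far apart, with a difference of 3.83 ± 0.30, or 14.3-fold (adjusted P = 0.000278), and a second Arg1 probe gave 3.03. Mmp12, macrophage elastase, was undetected in uninjured cells (4.44 and 4.48) and read 6.35, 7.61 and 8.30 after bleomycin. That is at least a 6.33-fold increase, with a fitted difference of 2.96 ± 0.46 (adjusted P = 0.0353; 0.0709 without bleomycin array 3). Trem2, a lipid-sensing receptor of macrophages, had the largest difference among the genes named here that were not called, 3.34 ± 0.57 (adjusted P = 0.0583), with 8.52, 9.38 and 10.40 against 5.66 and 6.54. In each of these genes every bleomycin array lay above every uninjured array.

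Markers of macrophages and monocytes moved with these genes. Of the 20 measured, 12 were higher at an unadjusted P under 0.05 (60%, against 3.21% of all genes) and 0 were lower, and the groups did not overlap, with bleomycin higher, for 11 (55%, against 11.7% of all genes). Their median difference was 1.28, and 1.44 without bleomycin array 3, beside -0.03 over all genes. Lyz2, lysozyme of myeloid cells, read 12.95, 13.84 and 13.19 against 11.88 and 11.51 (difference 1.63 ± 0.29, adjusted P = 0.0676). Its other probes gave 0.68 and, at a much dimmer level, 0.82. The 3 chains of complement C1q, made by tissue macrophages, differed by 2.07 (C1qa), 2.01 (C1qb) and 1.89 (C1qc), each with non-overlapping groups and none called. Ms4a7, another macrophage gene, chosen after its values were seen, differed by 2.66 ± 0.69 (adjusted P = 0.233). No member of this list was called. The summed signal of the list was 21800, 42400 and 32800 on bleomycin arrays 1, 2 and 3 and 11700 and 16100 on the uninjured arrays. In sorted bulk RNA, more cells of a type and more RNA per cell cannot be told apart, and the part of macrophages in the differences of Arg1, Mmp12 and Trem2 was not tested.

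The list of alternatively activated macrophage genes behaved unevenly. 5 of its 12 measured members were higher at an unadjusted P under 0.05 (against 3.21% of all genes): Arg1, Trem2, Gpnmb (1.57 ± 0.37), Ccl17 (2.59 ± 0.66) and Mgl2 (1.34 ± 0.39, chosen after its values were seen). Other members did not follow. Retnla read 8.52, 9.22 and 9.64 against 8.87 and 11.58, with overlapping groups. Mrc1, the mannose receptor, read 9.53, 9.90 and 8.41 against 9.01 and 9.50. For Gpnmb, a membrane glycoprotein of lipid-laden macrophages, a dimmer probe, undetected on both uninjured arrays, gave 0.92. The median of the list was 0.96, with 0.58 without bleomycin array 3 and 0.33 in the deposited normalised values.

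Other blood cells gave smaller differences. All 15 measured pan-leukocyte genes had positive differences (against 46.2% of all genes), 3 at an unadjusted P under 0.05 (20%, against 3.21% of all genes). Their median was 0.40, or 0.72 without bleomycin array 3. Ptprc, the common leukocyte antigen CD45, was undetected on all 5 arrays. Cd52, a surface glycopeptide of leukocytes, read 11.69, 12.60 and 12.18 against 10.04 and 10.89, a difference of 1.69 ± 0.30 that was not called (adjusted P = 0.064). T and NK cell markers had a median of 0.67 (0.16 in the deposited values). Of these, 0 of 10 differed at an unadjusted P under 0.05 (against 3.21% of all genes higher and 3.41% lower). Neutrophil markers lay at a median of -0.0016, although Retnlg (2.18 ± 0.75) and Il1b (1.58 ± 0.55), both expressed in neutrophils, were higher at an unadjusted P under 0.05. B cell markers had a median of -0.08.

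No cytokine or chemokine gene was called. Of 38 measured cytokine and chemokine genes, 30 had positive differences (78.9%, against 46.2% of all genes). At an unadjusted P under 0.05, 9 were higher (23.7%, against 3.21% of all genes) and 2 lower (5.26%, against 3.41%). The median was 0.51, or 0.19 in the deposited values. The monocyte attractants Ccl7 and Ccl12 read 7.77, 8.62 and 9.62 against 5.96 and 7.17, and 7.97, 8.84 and 9.29 against 5.73 and 7.29. Neither pair of groups overlapped, with differences of 2.11 ± 0.52 and 2.19 ± 0.56 (adjusted P = 0.217 for each). Ccl9 differed by 2.15 ± 0.57 and Ccl2, the main monocyte attractant, by 1.53 ± 0.66, or 0.82 without bleomycin array 3. The neutrophil attractants Cxcl1 and Cxcl2 each differed by 1.51, at adjusted P = 0.702 and 0.79, and the bleomycin and uninjured arrays overlapped for Cxcl2. Cxcl10, an interferon-induced chemokine, had the widest error of those named, 1.49 ± 1.30, and another of its probes gave 0.20. Cx3cl1, the membrane-bound chemokine of endothelium, went the other way, with 9.58, 9.48 and 8.41 against 10.45 and 10.60 (-1.36 ± 0.51, adjusted P = 0.605). Il6 read 4.80, 4.98 and 5.91 against 4.66 and 5.63, close to background in both groups.

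**Figure D3:**
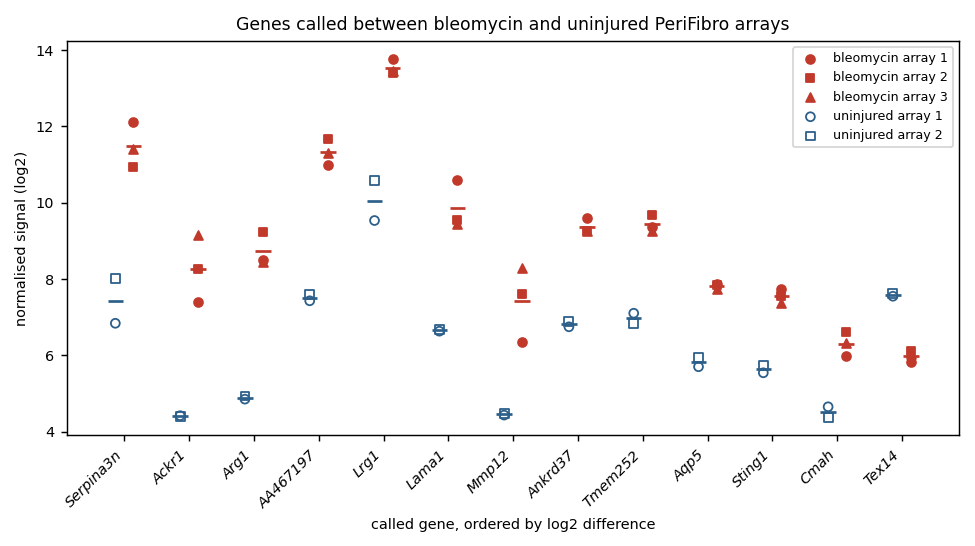
Normalised log2 signal (y axis) of the 13 called genes (x axis, ordered by log2 difference) on each of the 5 PeriFibro arrays: red symbols are bleomycin and open blue symbols uninjured arrays, and short lines are group means. For each of the 13 genes the 3 bleomycin arrays lie on the same side of both uninjured arrays, and Ackr1 and Mmp12 start at background (4.40 to 4.48).

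AA467197, the mouse counterpart of human NMES1, a small mitochondrial protein induced in inflammation, read 10.98, 11.68 and 11.29 against 7.43 and 7.59. The groups were separated by more than 3 log2 units, with a difference of 3.81 ± 0.42 (adjusted P = 0.0041). Sting1, the adaptor through which cells answer cytosolic DNA, read 7.74, 7.55 and 7.37 against 5.55 and 5.74 and rose by 1.91 ± 0.24 (adjusted P = 0.00999). It was called under 9 of 17 alternatives, with differences from 0.49 to 2.17. It was not called without background correction, on scaling to a common median or in the deposited normalised values. Of the 30 measured interferon-response genes, 0 were higher and 1 was lower (3.33%, against 3.41% of all genes) at an unadjusted P under 0.05, and the median was -0.25. That 1 gene was Gbp3, a guanylate-binding protein, at -1.12 ± 0.49. On scaling to a common median the median of the list became 0.0032, so its sign is not settled. Of the NF-kB subunits and feedback genes, 2 of 15 were higher at an unadjusted P under 0.05 (13.3%, against 3.21% of all genes). These were Bcl3 (1.38 ± 0.35) and Nfkbia (0.90 ± 0.32), and neither was called.

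Hypoxia and glycolysis genes had mostly positive differences, and 1 was called. Ankrd37, an ankyrin-repeat protein induced by hypoxia-inducible factor, read 9.60, 9.26 and 9.26 against 6.75 and 6.88, a difference of 2.56 ± 0.35 (adjusted P = 0.019; 0.0544 without bleomycin array 3). Ldha, lactate dehydrogenase A, read 12.04, 12.01 and 12.46 against 11.22 and 11.03 (1.05 ± 0.24, adjusted P = 0.173). Slc2a1, the glucose transporter GLUT1, differed by 1.30 ± 0.37 and Ndrg1, a stress-induced gene, by 1.18 ± 0.33. Gapdh, chosen after its values were seen, differed by 0.65 ± 0.21. These 5 were the members higher at an unadjusted P under 0.05 among 19 measured (26.3%, against 3.21% of all genes), 0 were lower, and the median was 0.40, or 0.14 in the deposited values. The 4 genes after Ankrd37 were not called.

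Of 19 measured matrix proteases and inhibitors, 1 was called (Mmp12), against 0.108% of all genes. At an unadjusted P under 0.05, 3 were higher (15.8%, against 3.21% of all genes) and 0 lower. The groups did not overlap, with bleomycin higher, for 8 (42.1%, against 11.7% of all genes). With bleomycin lower this held for 1 (5.26%, against 15.8%). The median was 0.48, or 0.14 in the deposited values. Lama1, which was on no list, was called as well. Lama1 encodes the alpha chain of the embryonic type of laminin in basement membranes and read 10.60, 9.56 and 9.44 against 6.64 and 6.68, a difference of 3.21 ± 0.48 (adjusted P = 0.0257; 0.0542 without bleomycin array 3). Adamts4, an aggrecan-cleaving protease, read 6.38, 6.62 and 5.76 against 4.67 and 4.87 (1.48 ± 0.28, adjusted P = 0.0815), and without bleomycin array 3 it was called, at 1.73 and adjusted P = 0.0453. Tnc, tenascin C of provisional matrix, read 6.69, 6.67 and 6.57 against 5.23 and 4.71 (1.67 ± 0.39, adjusted P = 0.191). Lox, which cross-links collagen, differed by 1.17 ± 0.43, and P4ha2, a collagen prolyl hydroxylase subunit, by 0.71 ± 0.25. Ctsk, the collagen-degrading protease cathepsin K, differed by 2.02 ± 0.91 and was brightest on bleomycin array 3 (11.65, against 9.48 and 9.60 on the other bleomycin arrays), with a difference of 1.31 without that array. Itgb6, a subunit of the integrin that activates latent TGF-beta, differed by 1.31 ± 0.41, with a dimmer probe, undetected in uninjured cells, at 0.68, and Ltbp1, which holds latent TGF-beta in the matrix, by -1.06 ± 0.44.

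The fibrillar collagens did not separate. Of 7 measured, 0 differed at an unadjusted P under 0.05 in either direction, against 3.21% of all genes higher and 3.41% lower. A list of 7 genes is too short for this count to set it apart from all genes. Their median difference was 0.07. Col1a1, a chain of type I collagen, read 6.98, 6.43 and 6.96 against 7.11 and 6.06 (0.21 ± 0.59, adjusted P = 0.975; 0.12 without bleomycin array 3). Col3a1, which forms type III collagen, read 5.74, 5.25 and 8.03 against 6.13 and 6.22. The high value came from bleomycin array 3 alone, and the difference changed from 0.17 to -0.68 without it. Fn1, fibronectin, read 7.60, 8.33 and 6.02 against 6.17 and 6.11 and differed by 1.18 ± 0.80, or 1.82 without bleomycin array 3. Array 3 lay with the uninjured arrays and arrays 1 and 2 above them. Acta2, smooth muscle actin, read 11.26, 10.53 and 11.66 against 11.77 and 10.43, with a difference of 0.05 ± 0.43, or -0.21 without bleomycin array 3. The 17 contractile and myofibroblast genes had a median of -0.03, with 0 higher and 1 lower at an unadjusted P under 0.05 (5.88%, against 3.41% of all genes). Pdgfrb read 7.22, 6.80 and 7.23 against 8.34 and 6.55 (-0.36 ± 0.48). Of the 13 pericyte markers 0 differed at an unadjusted P under 0.05 (against 3.21% of all genes higher and 3.41% lower), a list also too short to be set apart by this. With standard errors of 0.43 to 0.80, a 2-fold change of these genes was not detectable at this precision. Mmp14, a membrane-bound collagenase, read 11.36, 11.10 and 10.68 against 10.62 and 10.44 (0.52 ± 0.51).

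Endothelial genes leaned lower. Of 27 measured, 25 had negative differences and 7.41% positive ones (against 46.2% of all genes). At an unadjusted P under 0.05, 3 were lower (11.1%, against 3.41% of all genes) and 0 higher. The median was -0.49. The list lay at -0.27 without bleomycin array 3 and at -0.11 on scaling to a common median, a scaling that moved the median of all genes from -0.03 to 0.10. Ednrb, the endothelin B receptor of lung capillaries, read 12.39, 11.64 and 11.24 against 13.28 and 13.70 (-1.73 ± 0.48, adjusted P = 0.299), and its other probes gave -1.49 and, at a much dimmer level, -0.11. Ptprb, a phosphatase of endothelial junctions, differed by -0.83 ± 0.35 and Clec14a, an endothelial lectin, by -0.93 ± 0.32. Cldn5 differed by -0.27 ± 0.40, and on scaling to a common median by 0.0078. Klf2, the flow-induced transcription factor of endothelium, read 12.63, 12.80 and 12.07 against 13.58 and 13.64 (-1.11 ± 0.34, adjusted P = 0.365). Ackr1, Selp and Lrg1, which are known from venular and activated endothelium, had differences of the opposite sign.

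Angiogenic signalling genes leaned the same way. 20 of 22 had negative differences and 9.09% positive ones (against 46.2% of all genes). At an unadjusted P under 0.05, 3 were lower (13.6%, against 3.41% of all genes). The median was -0.45, with -0.25 without bleomycin array 3, -0.26 in the deposited values and -0.16 on scaling to a common median. Angpt2, which destabilises vessels, read 9.40, 9.45 and 8.55 against 10.29 and 10.14 (-1.08 ± 0.44). Esm1, a marker of tip cells, differed by -1.06 ± 0.42 and Sema3c, a guidance ligand, by -1.01 ± 0.43, the last with overlapping groups. The neuropilin gene Nrp1 differed by -0.98 ± 0.46. None was called.

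Markers of alveolar epithelium were divided. Aqp5, the water channel of type I alveolar cells, was called: it read 7.88, 7.84 and 7.75 against 5.70 and 5.94, a difference of 2.00 ± 0.32 (adjusted P = 0.0353; 0.0922 without bleomycin array 3). Cldn18, the tight junction protein of alveolar epithelium, differed by 2.03 ± 0.42 and Ager, a receptor abundant on type I cells, by 1.76 ± 0.40, at adjusted P = 0.114 and 0.164. Krt8, a keratin of simple and injured epithelium, read 8.12, 7.27 and 7.65 against 5.45 and 5.43 (2.24 ± 0.44, adjusted P = 0.0884). Napsa, the aspartic protease that processes surfactant proteins, differed by 1.40 ± 0.35, and Sftpd, surfactant protein D, chosen after its values were seen, by 1.33 ± 0.47. The surfactant genes Sftpc and Sftpb, which mark type II cells, differed by less than 0.2 in size. Over all 17 measured alveolar epithelial markers 5 were higher (29.4%, against 3.21% of all genes) and 1 lower (5.88%, against 3.41%) at an unadjusted P under 0.05. The median was 0.15, and the summed signal overlapped between bleomycin (9190 to 11100) and uninjured arrays (10400 and 12100). Ces1d, a carboxylesterase of lipid-storing fibroblasts, differed by 1.71 ± 0.44 and was not called.

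No cell cycle gene was called, and most differences were small and positive. Of 32 measured, 29 had positive differences (90.6%, against 46.2% of all genes). The groups did not overlap, with bleomycin higher, for 16 (50%, against 11.7% of all genes). At an unadjusted P under 0.05, 4 were higher (12.5%, against 3.21% of all genes) and 0 lower. The median was 0.53, with 0.51 without bleomycin array 3 and 0.15 in the deposited values. Mcm5, a subunit of the replicative helicase, read 9.15, 9.40 and 9.40 against 7.97 and 8.66 (1.00 ± 0.26, adjusted P = 0.254). Plk1, a mitotic kinase, differed by 0.79 ± 0.30, Cdt1, which licenses replication origins, by 0.83 ± 0.31, and E2f1, a transcription factor of S phase entry, by 1.10 ± 0.41. None passed the adjusted threshold. Targets of p53, the factor that answers DNA breaks, were divided. Cdkn1a, the cell cycle inhibitor p21, read 11.80, 12.26 and 11.06 against 10.67 and 10.30 (1.22 ± 0.40, adjusted P = 0.464). Xpc, a sensor of DNA lesions, differed by -0.65 ± 0.29, Ddb2 by -0.91 ± 0.40 and Sesn1 by -0.88 ± 0.39, while other probes gave -0.54 and, near background, 0.03 for Ddb2 and -0.77 and, near background, 0.02 for Sesn1. Over the 27 measured targets 1 was higher (3.7%, against 3.21% of all genes) and 3 were lower (11.1%, against 3.41%) at an unadjusted P under 0.05. The median was 0.06.

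No gene of the housekeeping lists was called. Respiratory chain genes had positive differences in 54 of 64 (84.4%, against 46.2% of all genes) with a median of 0.23. That median was -0.0028 without bleomycin array 3, on which alone it stood at 0.70. Cytosolic ribosomal protein genes were positive in 40 of 47 (85.1%) with a median of 0.23, and 0.10 without that array. Rps6 and Rps2 differed by 0.61 ± 0.22 and 0.42 ± 0.18. Proteasome genes were positive in 24 of 29 (82.8%), with medians of 0.19 with and 0.04 without array 3. Xbp1, a transcription factor of the unfolded protein response, differed by 0.84 ± 0.21 (adjusted P = 0.217), and the list of that response lay at 0.0083. On scaling to a common median, which put the median of all genes at 0.10, the medians were 0.56 for the respiratory chain, 0.61 for ribosomal proteins, 0.51 for the proteasome and 0.31 for the unfolded protein response.

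**Figure D4:**
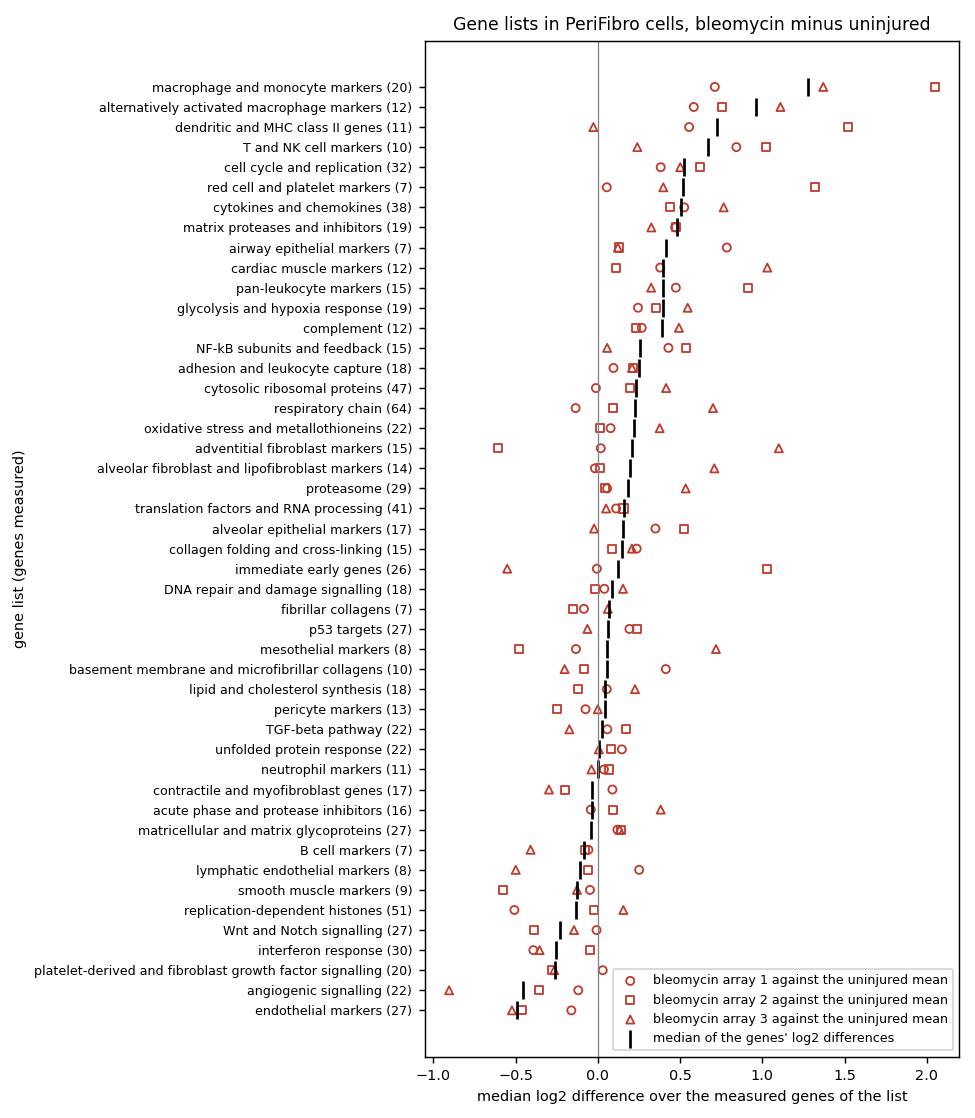
Median log2 difference, bleomycin minus uninjured (x axis), of each gene list with at least 7 measured genes (y axis, number measured in brackets). Black bars are medians over the fitted differences and red symbols the medians on each bleomycin array against the uninjured mean. Macrophage and monocyte markers lie highest at 1.28 and endothelial markers lowest at -0.49, and array 3 stands far from arrays 1 and 2 for the respiratory chain.

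A further 3 called genes belong to none of these groups. Tmem252, a membrane protein on chromosome 19, read 9.37, 9.67 and 9.26 against 7.11 and 6.83 (2.47 ± 0.31, adjusted P = 0.00966). Cmah, the enzyme that hydroxylates sialic acid and is lost in humans, was undetected in uninjured cells (4.66 and 4.39) and read 5.98, 6.61 and 6.33 after bleomycin, at least a 2.93-fold rise (1.79 ± 0.26, adjusted P = 0.0221; 0.0709 without bleomycin array 3). Tex14 fell from 7.55 and 7.62 to 5.84, 6.11 and 6.04 (-1.59 ± 0.22, adjusted P = 0.0208; 0.0691 without bleomycin array 3), and it was called under 7 of 17 alternatives. It is known from the male germ line, and it was lower on the bleomycin arrays, which are the male ones by the labels. Injury and sex cannot be told apart here, and the part of sex in this difference was not tested. Igfbp2, a carrier of insulin-like growth factors, was undetected in uninjured cells and read 7.21, 6.33 and 6.36 after bleomycin, at least 3.66-fold higher, but was not called (adjusted P = 0.0815), and another probe gave 1.07. Igfbp3, a second carrier, differed by -1.07 ± 0.26. Gpx3, a secreted glutathione peroxidase, differed by 1.40 ± 0.35, and Fgfr2, a fibroblast growth factor receptor, by -1.06 ± 0.42, or -0.66 without bleomycin array 3.

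On the lower side the differences were smaller, and Tex14 alone was called. Hlx, a homeobox transcription factor of lung mesenchyme, read 9.89, 9.19 and 9.16 against 11.39 and 11.49 (-2.03 ± 0.39, adjusted P = 0.0857). Pcdha6, a protocadherin on chromosome 18, differed by -2.23 ± 0.39 (adjusted P = 0.0632), and the genes of its cluster share exons, so its probe may also read its neighbours. The carboxylesterases Ces2e and Ces2g, members of a multigene family of similar sequence, differed by -1.65 ± 0.29 and -1.62 ± 0.35. Cnr2, the cannabinoid receptor of immune cells, differed by -1.24 ± 0.24 and Tril, a modulator of Toll-like receptors, by -1.69 ± 0.35. Sh3gl2, Zfp874b and Lrrn3 differed by -1.37 ± 0.30, -1.37 ± 0.30 and -1.82 ± 0.40. Sgpp2 and Klk1b8 were undetected on all 3 bleomycin arrays and read at least 1.49-fold and 1.64-fold lower. These 11 genes were picked among those whose groups did not overlap, and their adjusted P values lay between 0.0632 and 0.164.

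The same genes were set beside the other sorted populations, which had their own controls. Of the 13 genes called in PeriFibro cells, 12 differed in the same direction in Fibro cells, where 9 were called (against 0.564% of all genes called higher and 1.01% lower there), and 11 in Peri cells, where 3 were called (against 0.498% and 0.083%). Arg1 rose in all populations, by 3.83 in PeriFibro, 5.26 in Fibro and 4.83 in Peri cells. Serpina3n rose by 4.06, 4.09 and 5.19, and AA467197 by 3.81, 3.65 and 2.51. Tex14 fell by 1.59 in PeriFibro and by 1.96 in Fibro cells and was -0.17 in Peri cells. In each population the injured mice were male and the uninjured female. The labels do not say whether the populations were sorted from the same lungs, so these comparisons may not rest on independent mice. Deviations of same-numbered PeriFibro and Fibro bleomycin arrays correlated at 0.542, -0.41 and -0.299 for arrays 1, 2 and 3.

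**Figure D5:**
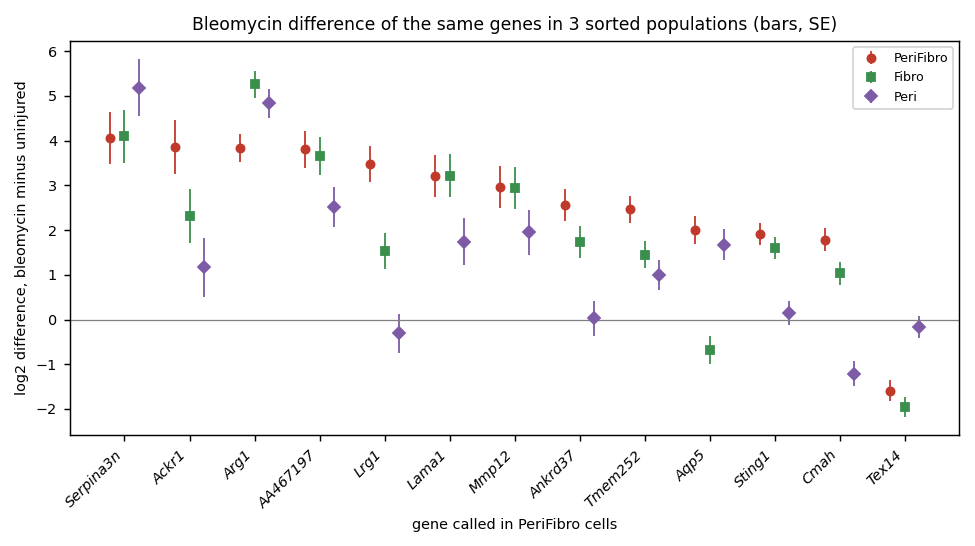
Log2 difference, bleomycin minus uninjured (y axis; bars, SE of the fit), of the 13 genes called in PeriFibro cells (x axis), in PeriFibro (red circles), Fibro (green squares) and Peri cells (purple diamonds). Arg1 and Serpina3n are far above zero in all 3 populations, while Lrg1 is high in PeriFibro (3.48) and near zero in Peri cells (-0.31).

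Whether the responses differed was tested as the difference of the differences. Against the Fibro response 14 genes were called as higher in PeriFibro (0.116%) and 1 as lower (0.0083%), and 0 of the 13 PeriFibro genes were among them. At an unadjusted P under 0.05 there were 399 genes (3.31%). Of these 15, 0 were called in PeriFibro cells themselves. In 12 of them the PeriFibro groups differed by less than 0.5 and averaged only 4.39 to 5.04, at or near background, while all 12 were called lower in Fibro cells, whose uninjured means were 6.40 to 9.68. For these 12 the contrast is a fall in Fibro cells beside genes hardly measured in PeriFibro cells, where 0 of the 12 were detected on all 5 arrays. Pla2g1b, a secreted phospholipase, averaged 4.66 in bleomycin and 4.61 in uninjured PeriFibro cells and 5.37 and 9.62 in Fibro cells, and the responses differed by 4.29 ± 0.47 (adjusted P = 0.00575). Aqp5 differed by -0.69 in Fibro cells against 2.00 in PeriFibro cells, but the difference of the responses was just short of the threshold (2.69 ± 0.45, adjusted P = 0.0522). Against the Peri response 0 genes were called by limma, with 634 at an unadjusted P under 0.05 (5.26%), and 1 was called in the deposited normalised values. The nearest were Cmah, which differed by -1.21 in Peri cells (difference of the responses 3.00 ± 0.38, adjusted P = 0.0504), and Gpnmb, which rose by 5.80 in Peri cells against 1.57 in PeriFibro cells (-4.23 ± 0.55, adjusted P = 0.0504). Dab2, an endocytic adaptor, followed at -3.86 ± 0.56 (adjusted P = 0.0887), and Lrg1 at 3.79 ± 0.60 (adjusted P = 0.148).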

How the data were processed

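Total RNA of sorted PeriFibro, Fibro and Peri cells was hybridised to 14 Illumina MouseWG-6 v2.0 bead arrays. The authors deposited non-normalised bead-summary intensity values with a detection p-value for each probe, and a table of log2 values after variance stabilisation and quantile normalisation in lumi (version not given in the sources used here). The deposited intensity values were corrected for background using the detection p-values and quantile normalised on the log2 scale with neqc (limma 3.58.1, R 4.3.3; offset 16). Of 45281 probes, 24445 had a detection p-value under 0.05 on at least 2 arrays. The probe-to-gene table used here gave 1 symbol for 34885 probes, several for 18 and none for 10378. Each gene was represented by the kept probe with the highest mean, and 4978 genes had several kept probes.

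A linear model with 1 mean for each of the 6 groups was fitted to 12439 genes on all 14 arrays (8 residual and 3.43 prior degrees of freedom), and P values were adjusted over all of them by Benjamini-Hochberg. Genes were called at an adjusted P under 0.05 and at least 2-fold. Genes on X and Y (379 tested) and 10 with another or no chromosome are not reported. Responses of 2 populations were compared as a contrast of contrasts. Where a gene was undetected in a whole group, "at least" folds use the array's lowest detected signal as floor. Summed marker signals are linear. The procedure was tested on simulated data.

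The cells, gene lists (29) and cell marker lists (19) were chosen with earlier results of these data known. Named genes were the called ones, the 12 highest and 12 lowest t statistics without overlap between groups, up to 4 members of each list by smallest P, genes the study names, and up to 10 genes by smallest P in each contrast of responses. Timp1 and other X-linked genes are left out, and Spp1 and Areg were not analysed here. Alternatives were the deposited log2 values, an offset of 50, common-median scaling, omitting the background correction, other detection filters, other ways to represent a gene, the 5 PeriFibro arrays alone, a replicate block, array weights, another variance model and leaving out each array. The slide of each array was not known, so no slide term was fitted. The number of arrays limits the precision.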

Additional observations from a re-analysis of the deposited data

Results flagged for a closer look

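In 15 genes the contrast between the PeriFibro and Fibro responses to bleomycin was called (limma, adjusted P between 0.00477 and 0.0489). For most of them this is no measured response of PeriFibro cells, as set out below. The log2 difference of the responses was 4.29 for Pla2g1b, 4.23 for Lgi3, 3.95 for Scgb1c1, 3.62 for Acoxl, 3.51 for Npw, 3.12 for Bpifb5 and 3.04 for Irx2. It was 2.95 for Kcne2, 2.93 for Atp6v1c2, 2.68 for Tinag, 2.40 for Lrp2, 2.22 for Lamp3, 2.18 for Matn4 and 2.12 for Ppp1r1b, and -2.25 for Gdf3.

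None of the 15 was called in PeriFibro cells. In 12 of them (all but Bpifb5, Matn4 and Gdf3) both PeriFibro group means lay between 4.39 and 5.04, at or near background, and the gene was called lower in Fibro cells, so the value gives the fall in Fibro cells and no measured response of PeriFibro cells. Bpifb5 and Matn4 had a higher bleomycin mean in PeriFibro cells (6.19 against 4.43, and 7.07 against 6.09), and a lower bleomycin mean in Fibro cells (5.33 against 6.69, and 7.85 against 9.05). Gdf3, a member of the TGF-beta family, averaged 7.16 in bleomycin and 4.39 in uninjured Fibro cells and 4.82 and 4.30 in PeriFibro cells. The detection filter counts arrays of any population. The 12 genes could thus pass it through uninjured Fibro cells, where their means were 6.40 to 9.68. Pla2g1b was called under 20 of 21 alternatives, Acoxl under 19 of 21, and Atp6v1c2 and Tinag each under 19 of 20. All of these are among the 12, so their tallies describe the fall in Fibro cells. Gdf3 was called under 4 of 20 and Matn4 and Scgb1c1 under 5 of 21 and 5 of 20.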

How the results depend on the processing

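For the 13 called genes, all 221 values under alternative settings kept their direction, 127 stayed past the threshold and 94 did not. Out of 17 alternatives, Arg1 was called under 16, Lrg1 under 15, AA467197 under 14 and Tmem252 under 13. Sting1, Ankrd37 and Lama1 were called under 9 each, and Serpina3n and Cmah under 8 each. Tex14, Ackr1 and Mmp12 were called under 7 each and Aqp5 under 5. Of 1526 values for the other 90 genes named, 1449 kept direction and side, 62 passed the threshold and 15 turned sign. The 13 calls of PeriFibro bleomycin against uninjured became 23 with an offset of 50, 162 with array weights (123 higher, 39 lower; the weight of bleomycin array 3 was 0.358), 5 with the replicate block and 1 with the 5 PeriFibro arrays alone, which leaves fewer samples for the spread. They lay between 1 and 12 on leaving out 1 array. The share of higher calls was 92.3%, against 76.5% without background correction, 78.3% with the offset of 50, 77.8% in the deposited values and 75.9% with array weights. The 15 calls against the Fibro response became 24 with the offset of 50, 5 with common-median scaling, 3 with the stricter filter, 30 with the mean of a gene's probes, 6 with the replicate block, 31 with array weights and 37 with a trended, robust variance, and lay between 2 (without PeriFibro uninjured array 2) and 44 (without Fibro uninjured array 1) on leaving out 1 array. The 0 calls against the Peri response became 1 in the deposited values and 15 with array weights, and lay between 0 and 3 on leaving out 1 array. The causes were not tested.

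The replicate numbers are shared by arrays of different sex and so do not pair injured with uninjured arrays. Deviations of arrays numbered 1 correlated at 0.215 and of those numbered 2 at -0.19. With only 2 uninjured arrays, whose deviations mirror each other, these values cannot decide on a pairing. With the replicate block the log2 difference was -0.35 for Col3a1, -0.0802 for Acta2 and -0.195 for Il6, and with array weights -0.523, -0.231 and -0.146. On leaving out 1 array it ran from -0.32 to 0.73 for Col1a1, -0.678 to 0.715 for Col3a1, -0.625 to 0.717 for Acta2, -1.26 to 0.53 for Pdgfrb and -0.402 to 0.573 for Il6. Cldn5 lay at 0.00779 with common-median scaling. Genes undetected in a group have only a bound there, which limits what a fold can show.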
